A study of Mus musculus with 9 samples.

Results

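The proteasome genes of CD11b+ splenocytes were compared between mice exposed to repeated social threat and control mice. Members were the genes whose symbol starts with Psma, Psmb, Psmc, Psmd, Psme or Psmg followed by a digit, read from probe sets that name 1 gene. The immunoproteasome subunits Psmb8, Psmb9 and Psmb10 and the unrelated Psmc3ip were left out, and each gene was read from the probe set with the highest mean over all 9 arrays. This gave 44 genes of 18193 named on the array, from 93 probe sets. Of these genes, 42 reached the filter on dim values, a mean of 2.66 on the log2 scale, and were tested. The other two, Psma8 and Psmb11, lay below it. Psma8, a germ cell form of an alpha subunit, read between 1.70 and 1.96 in HighThreat animals, against 1.82, 1.80 and 1.77 in LowThreat pools. Psmb11, the beta subunit of the thymus, read between 2.04 and 2.32 in HighThreat animals, against 1.90, 1.98 and 2.27 in LowThreat pools. Psme2 was not analysed here, since its probe set also names Psme2b.

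The HighThreat group consisted of 6 C57BL/6 mice exposed repeatedly to social threat, with 1 array per animal. The LowThreat group consisted of 6 C57BL/6 mice kept under conditions without threat, whose RNA was pooled by 2 into 3 arrays. In both groups the cells were adherent splenocytes selected with magnetic beads for CD11b, an integrin chain of monocytes, macrophages and granulocytes, and labelled as monocytes. The labels of these samples give no age, sex or time after the last exposure. A pool averages its animals, so the spread between pools is not the spread between control animals.

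The proteasome is the protease complex that degrades proteins marked with ubiquitin. Its barrel-shaped core is a stack of alpha and beta rings, with the proteolytic sites inside the beta rings. A regulatory particle caps the core: its base unfolds substrates with a ring of ATPases, and its lid removes the ubiquitin chain. Alternative caps, the activators, open the core without ATP, and dedicated chaperones assemble the rings. In monocytes and macrophages the complex also feeds antigen presentation and degrades the inhibitor of NF-kappaB.

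The arrays differed widely between the groups, and 45.8% of the 13078 tested genes were called at an adjusted p under 0.05 (limma, Benjamini-Hochberg over all tested genes). Itgam, which encodes CD11b, was higher by 0.57 in HighThreat cells (SE 0.0515). The mean of 13 granulocyte and precursor markers lay between 10.27 and 10.69 in HighThreat animals, against 8.92 to 9.10 in LowThreat pools, and 12 of the 13 were called higher. The 7 markers of proliferating cells were all called higher, with means of 5.83 to 6.47 in HighThreat animals and 4.91 to 5.06 in LowThreat pools. Markers of lymphocytes and dendritic cells moved the other way. Of 9 B cell markers 8 were called lower, with means of 4.53 to 4.95 in HighThreat animals and 6.63 to 6.87 in LowThreat pools. Of 6 NK cell markers 5 were called lower (means 4.07 to 4.25 in HighThreat animals, 5.89 to 6.01 in LowThreat pools). Of 5 tested T cell markers 4 were called lower (3.86 to 3.94 in HighThreat animals, 4.37 to 4.51 in LowThreat pools), and of 6 dendritic cell markers 5 (4.70 to 4.77 in HighThreat animals, 5.64 to 5.83 in LowThreat pools). Cd3g of the T cell list and Hba-a1 of the erythroid list lay below the filter. The 9 monocyte and macrophage markers had means of 9.40 to 9.48 in HighThreat animals and 9.10 to 9.23 in LowThreat pools, with 6 called higher and 1 lower, and of 3 erythroid markers 1 was called higher (means 3.91 to 4.03 in HighThreat animals, 3.85 to 4.0 in LowThreat pools). The signal of beta-actin at the 3′ end over the 5′ end was 0.356 ± 0.0336 in HighThreat arrays and 0.472 ± 0.0626 in LowThreat arrays (SD, n = 6 and 3, exact permutation p = 0.0238, two-sided), and the same measure of Gapdh had a difference of -0.0357 between the groups (p = 0.512 in the same exact test). These mixtures moved with every difference given here, and their part in the proteasome values was not tested. In such bulk samples, fewer cells of a type and less RNA per cell cannot be told apart.

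Proteasome genes differed little in size between HighThreat and LowThreat cells. More members were called higher than lower in HighThreat, but this lean rested largely on LowThreat pool 5-6, as given below. Of the 42 tested members, 13 were called higher and 4 lower. The higher ones were 31.0% of the members, against 23.8% of all tested genes, and the lower ones 9.52%, against 22% of all. Together 40.5% of the members were called, a share near the 45.8% of all genes. In 12 of the 42 members every HighThreat animal lay above every LowThreat pool, against 21.5% of all genes. In 3 of the 42 every animal lay below every pool, against 20.3% of all. The 12 include Psme3ip1, which was not called and encodes no subunit. No member differed by 1.5-fold or more, which 11.2% of all tested genes did. The called members differed by 1.10-fold to 1.46-fold, with a median absolute difference of 0.213 on the log2 scale, against 0.356 for all called genes. The median difference, HighThreat minus LowThreat, was 0.06 over the members and 0.03 over all tested genes. Replicates of the members were close: the median SD was 0.0592 in HighThreat and 0.0595 in LowThreat, against 0.0846 and 0.0832 over all genes.

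**Figure D1:**
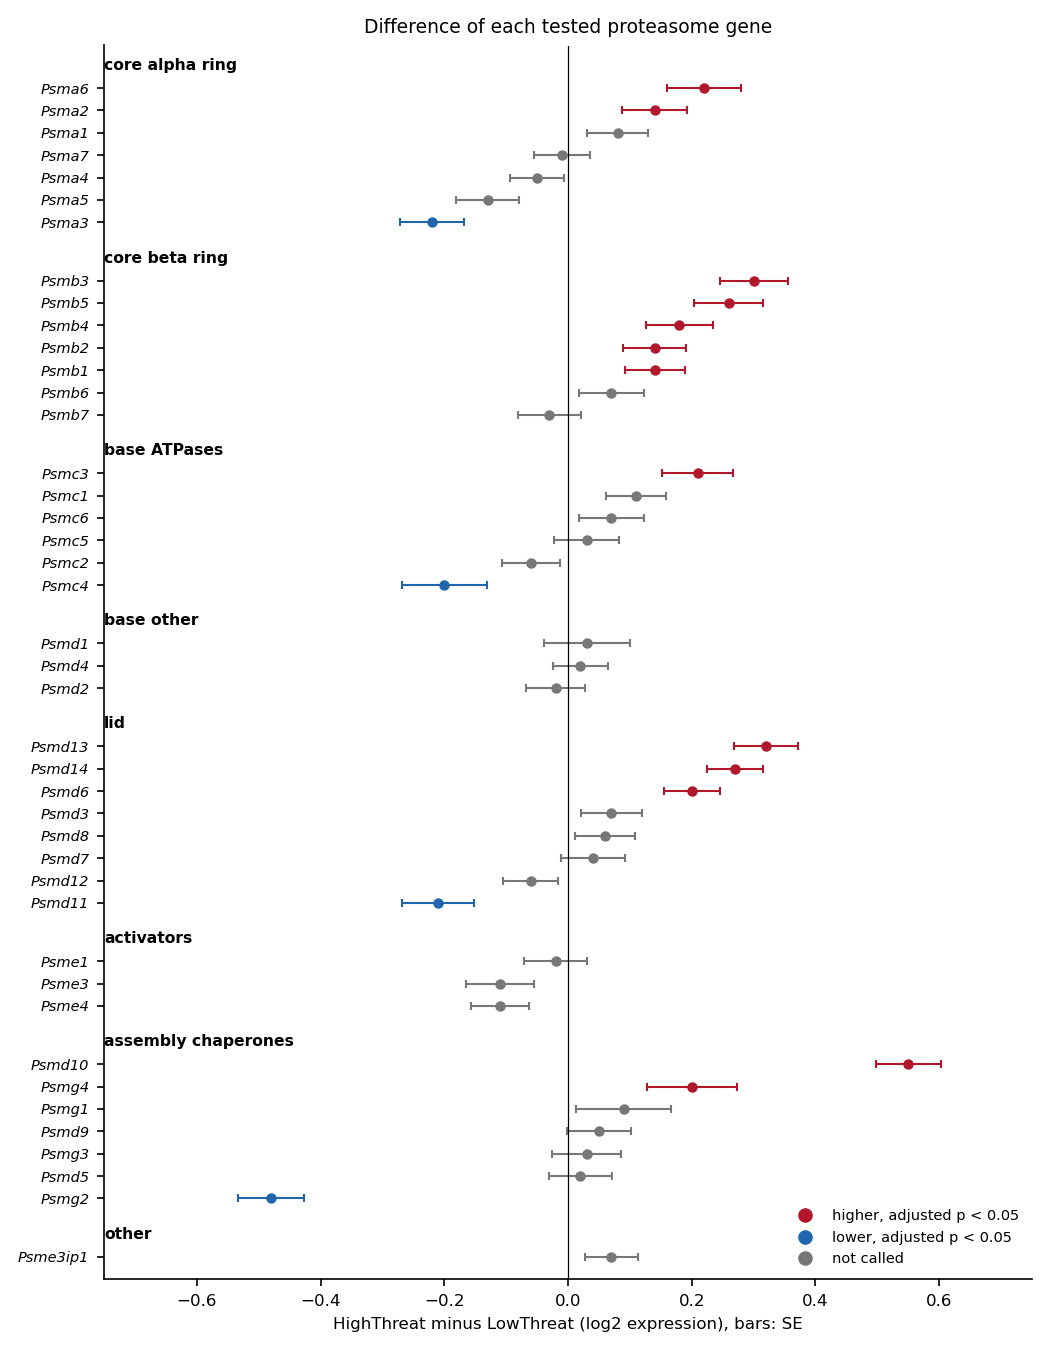
Difference between HighThreat (n = 6) and LowThreat (n = 3 pools) in log2 expression for the 42 tested genes, grouped by their place in the complex, with bars for limma's standard error and colours for the call at an adjusted p under 0.05. The beta ring has 5 red points and no blue one, every other group with calls holds both colours, and the activators and non-ATPase base subunits are all grey.

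One control array weighed heavily on these counts. LowThreat pool 5-6 was the lowest of the 3 pools for 26 of 42 members (61.9%), against 46.2% of all tested genes, and for 6 of the 7 beta ring genes. Without it, 6 members were called higher, against 20% of all genes, and 5 lower, against 20.6% of all. The 8 calls lost were those of Psma2, Psma6, Psmb1, Psmb2, Psmb4, Psmc3, Psmc4 and Psmg4, and Psme3 and Psme4 became called as lower. The median difference of the members was then 0.024, against 0.018 for all genes. Among the HighThreat animals, animal 6 was the highest for 22 of 42 members (52.4%), against 20.4% of all genes, and animal 1 was the lowest for 16 (38.1%), against 18.7% of all. The calls of Psmb3, Psmb5, Psmd6, Psmd10, Psmd11, Psmd14 and Psmg2 stood without any 1 array, and under the other settings tried apart from the test against a 1.2-fold difference, which only Psmd10 and Psmg2 passed. That test was passed by 16.5% of all tested genes. Psmb5, Psmd10 and Psmd14 have a single probe set each, so the settings that change the probe set per gene could not change their values.

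Genes of the beta ring, which holds the proteolytic sites, were mostly called higher. Of its 7 tested genes 5 were called higher (71.4%, against 23.8% of all tested genes) and none lower, against 22% of all, with a median difference of 0.14, against 0.03 over all genes. Without LowThreat pool 5-6, only Psmb3 and Psmb5 of the 7 were called higher, against 20% of all genes. Psmb5 carries the chymotrypsin-like site of the proteasome. It read from 9.36 to 9.51 in HighThreat animals, with a median of 9.44, against 9.19, 9.25 and 9.09 in LowThreat pools. The groups did not overlap, and Psmb5 was higher by 0.26 (SE 0.0557, 1.2-fold, limma adjusted p = 0.00177). Psmb3, a structural subunit without a proteolytic site, had the largest rise of the ring. It lay between 8.99 and 9.19 in HighThreat animals (median 9.11), against 8.74, 8.83 and 8.80 in LowThreat pools, a difference of 0.30 (SE 0.055, 1.23-fold, limma adjusted p = 6.48e-04). Both of its probe sets were called, at 0.30 and 0.25. The structural subunits Psmb1, Psmb2 and Psmb4 rose by smaller amounts, 0.14, 0.14 and 0.18 (limma adjusted p = 0.0328, 0.0369 and 0.0153). These 3 calls rested on LowThreat pool 5-6. Without that pool the differences were 0.107, 0.091 and 0.118 (limma adjusted p = 0.131, 0.176 and 0.0818). Psmb1 also lost its call without LowThreat pool 1-2 or HighThreat animal 1, 3 or 5, and Psmb2 without LowThreat pool 1-2 or HighThreat animal 2, 5 or 6, at adjusted p-values between 0.0517 and 0.0732. A further probe set of Psmb4, of a type that can hybridise to other transcripts, differed by -0.08 and was not called. It read near 9.24 and 9.32 in HighThreat and LowThreat. With the mean of its probe sets Psmb4 differed by 0.051 and lost its call (limma adjusted p = 0.353). A dimmer probe set of Psmb1 was called higher at 0.27, and another differed by 0.19 without a call.

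The other catalytic subunits of the constitutive core did not pass the test. Psmb6, with the caspase-like site, read from 8.46 to 8.65 in HighThreat animals (median 8.58), against 8.56, 8.51 and 8.45 in LowThreat pools, and differed by 0.07 (SE 0.0521, limma adjusted p = 0.333). Psmb7, with the trypsin-like site, read from 9.15 to 9.32 in HighThreat animals (median 9.23), against 9.29, 9.29 and 9.19 in LowThreat pools, and differed by -0.03 (SE 0.0512, limma adjusted p = 0.666). For both genes the ranges of the groups overlapped. Whether Psmb5 differed from these catalytic partners in its response was not tested. The reference gene table lists copies named as pseudogenes of Psmb5, Psmb6, Psmb7 and Psma5, so these readings may include transcripts of a copy.

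Transcription of proteasome genes is known to be driven in part by NRF1 and NRF2 through antioxidant response elements and, in human cells, by NF-Y through the CCAAT box. The 250 bases before the start of Psmb5 and Psmb3 are shown because these were the beta ring genes whose calls held without any 1 array. Capitals mark a match to the core of the antioxidant response element, TGACNNNGC, in Psmb5, and the CCAAT boxes in Psmb3. The sequences are from RefSeq, build GRCm38.p6. That of Psmb5 is the minus strand of chr14:54617996-54618245, and that of Psmb3 the plus strand of chr11:97703184-97703433.
Psmb5: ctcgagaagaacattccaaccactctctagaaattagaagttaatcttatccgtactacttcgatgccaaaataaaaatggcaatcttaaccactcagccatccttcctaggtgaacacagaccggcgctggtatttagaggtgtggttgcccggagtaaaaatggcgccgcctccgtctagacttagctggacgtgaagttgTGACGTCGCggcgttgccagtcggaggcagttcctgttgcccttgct
Psmb3: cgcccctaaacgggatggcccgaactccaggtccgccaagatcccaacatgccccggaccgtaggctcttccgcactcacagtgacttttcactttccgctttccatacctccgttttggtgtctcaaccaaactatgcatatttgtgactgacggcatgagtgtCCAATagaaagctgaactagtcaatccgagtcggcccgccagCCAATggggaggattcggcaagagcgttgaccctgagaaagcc

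The match in Psmb5 begins 47 bases before the start, and the CCAAT boxes of Psmb3 begin 85 and 43 bases before it. RefSeq windows of 300 bases, the 250 shown and 50 after the start, were found for 36 of the 44 members, in 39 windows. Both strands were searched for 12 motifs, which were chosen with the sequences in view. TGACNNNGC occurred in 6 of the 39 windows (15.4%), against 13.0% of 21262 windows of protein-coding genes, and CCAAT in 14 (35.9%), against 38.2% of all. CCGGAAG, the core of many sites of ETS factors, occurred in 16 (41.0%), against 11.6% of all. GGAAGTG, which can overlap CCGGAAG, occurred in 8 (20.5%), against 12.0% of all, and the GC box GGGCGG in 22 (56.4%), against 46.2%. The E box CACGTG occurred in 4 (10.3%), against 7.84% of all, and TTCNNGAA in 2 (5.13%), against 7.61%. The longer response element TGANTCAGC was found in 1 window (2.56%), against 1.08% of all, and the AP-1 motif TGACTCA in 1 (2.56%), against 4.66%. None of the 39 held TGACGTCA, the NF-kappaB motif or ATTGGTCAG, the last of which contains a reversed CCAAT, against 2.23%, 0.16% and 0.64% of all windows. A match describes letters only.

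Genes of the alpha ring, which gates the entry to the core, moved in both directions. Of the 7 tested genes, 2 were called higher (28.6%, against 23.8% of all tested genes) and 1 lower (14.3%, against 22% of all). The median difference was -0.01, against 0.03 over all genes. Psma6 rose most, with values of 9.70 to 9.88 in HighThreat animals (median 9.73), against 9.62, 9.57 and 9.44 in LowThreat pools. The groups did not overlap, and the difference was 0.22 (SE 0.0598, 1.16-fold, limma adjusted p = 0.00954). Psma6 was read from a probe set that can hybridise to related transcripts, while a probe set specific to 1 transcript differed by 0.14 and was called higher too, and a dimmer one differed by 0.04 without a call. With the mean of its probe sets Psma6 differed by 0.057 and lost its call (limma adjusted p = 0.302). Psma2 rose by 0.14 (limma adjusted p = 0.0438). Without LowThreat pool 5-6 the differences were 0.167 for Psma6 and 0.098 for Psma2 (limma adjusted p = 0.0553 and 0.19), and Psma2 also lost its call without LowThreat pool 3-4 or any 1 of HighThreat animals 2 to 6, at adjusted p-values between 0.0502 and 0.0763.

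Psma3 went the other way. It lay between 9.62 and 9.80 in HighThreat animals (median 9.75), against 9.94, 9.92 and 10 in LowThreat pools, so that every HighThreat animal was below every pool. It fell by 0.22 (SE 0.0514, 1.17-fold, limma adjusted p = 0.00345). A second, dimmer probe set of Psma3 differed by -0.30 without passing the test. Psma7 had the smallest difference of the ring, with values of 9.11 to 9.14 in HighThreat animals (median 9.13), against 9.19, 9.17 and 9.06 in LowThreat pools. Its difference was -0.01 (SE 0.0449, limma adjusted p = 0.825), and the HighThreat animals lay within the range of the pools. Psma1, Psma4 and Psma5 differed by 0.08, -0.05 and -0.13 without a call. Psma5 was close to the threshold (limma adjusted p = 0.0514), and without HighThreat animal 6 it was called lower, at -0.153 (limma adjusted p = 0.0237). Psma5 was also called lower with a 60th percentile filter, quantile normalization, a trended prior, pools at weight 2 or a block by number. Its limma adjusted p-values were then between 0.0248 and 0.0391, and it stayed uncalled under the remaining settings.

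**Figure D2:**
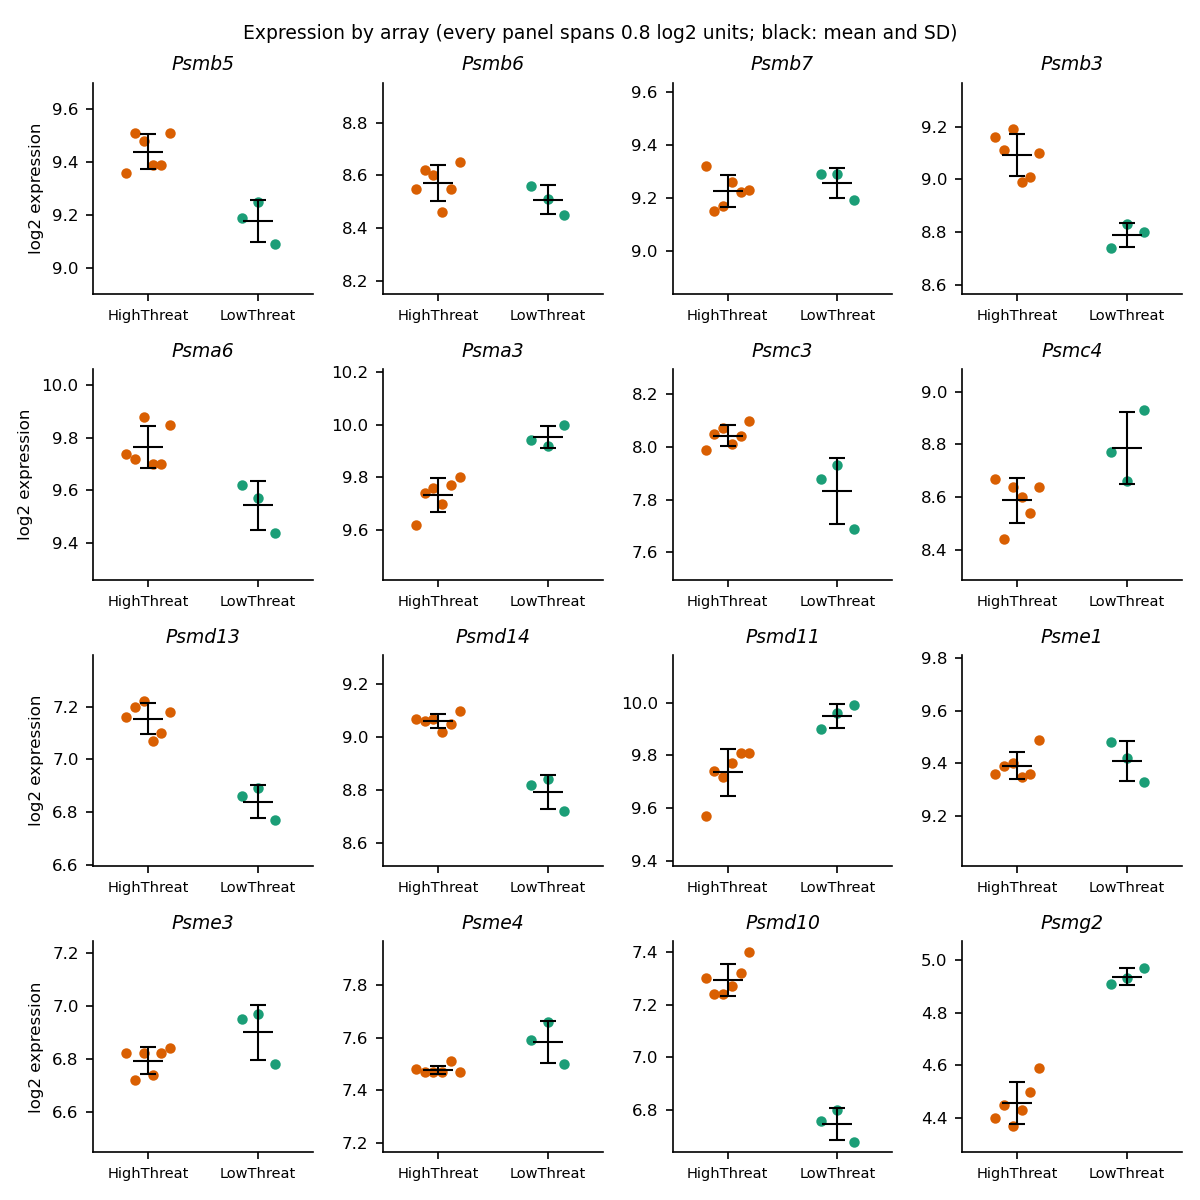
Log2 expression of 16 proteasome genes on every array, with HighThreat animals (n = 6) left of LowThreat pools (n = 3), black marks for mean and SD, and the same span of 0.8 on each vertical axis. Psmb5, Psmb3, Psma6, Psmc3, Psmd13, Psmd14 and Psmd10 lie wholly higher in HighThreat, Psma3, Psmd11 and Psmg2 wholly lower, and Psmb6, Psmb7, Psmc4 and the 3 activators overlap.

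The base held few differences. Among its 6 ATPases, which unfold the substrate, 1 was called higher and 1 lower (16.7% each). Over all tested genes, 23.8% were called higher and 22% lower. Psmc3 read from 7.99 to 8.10 in HighThreat animals (median 8.05), against 7.88, 7.93 and 7.69 in LowThreat pools, and rose by 0.21 (SE 0.0574, 1.15-fold, limma adjusted p = 0.0101). The groups did not overlap, though pool 5-6 stood well under the other pools, and without it the difference was 0.136 (limma adjusted p = 0.0536). Psmc4 read from 8.44 to 8.67 in HighThreat animals (median 8.62), against 8.77, 8.66 and 8.93 in LowThreat pools, and fell by 0.20 (SE 0.0684, 1.15-fold, limma adjusted p = 0.031). Here the groups overlapped by the highest animal and the lowest pool. The call of Psmc4 was lost without LowThreat pool 1-2 or 5-6 or HighThreat animal 2 or 5 (differences -0.208, -0.126, -0.169 and -0.19, limma adjusted p = 0.0664, 0.171, 0.0521 and 0.0541), and its single-transcript probe set differed by -0.02. Psmc5 had the smallest difference of the ATPases, 0.03 (limma adjusted p = 0.703), with values of 7.83 to 8.02 in HighThreat animals (median 7.94), against 7.90, 7.95 and 7.86 in LowThreat pools. Psmc1, Psmc2 and Psmc6 differed by 0.11, -0.06 and 0.07 without a call.

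The scaffolds Psmd1 and Psmd2, which hold ubiquitin receptors and shuttle factors at the base, differed by 0.03 and -0.02. Psmd4, a ubiquitin receptor of the base, read from 8.48 to 8.60 in HighThreat animals (median 8.53), against 8.53, 8.49 and 8.54 in LowThreat pools. It differed by 0.02 (SE 0.0443, limma adjusted p = 0.778), and all pools lay within the range of the animals. Of its dimmer probe sets, 1 was called lower at -0.13 and 1 differed by 0.10 without a call.

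In the lid, 3 of 8 genes were called higher (37.5%, against 23.8% of all tested genes) and 1 lower (12.5%, against 22% of all). The median difference of the lid was 0.06, against 0.03 over all genes. Psmd14, the metalloprotease that cuts the ubiquitin chain from the substrate, read from 9.02 to 9.10 in HighThreat animals (median 9.06), against 8.82, 8.84 and 8.72 in LowThreat pools. Every animal lay above every pool, and Psmd14 was higher by 0.27 (SE 0.0447, 1.21-fold, limma adjusted p = 2.97e-04). Psmd13, a structural lid subunit, had the largest rise. It read from 7.07 to 7.22 in HighThreat animals (median 7.17), against 6.86, 6.89 and 6.77 in LowThreat pools, and rose by 0.32 (SE 0.051, 1.24-fold, limma adjusted p = 2.38e-04). A second probe set of Psmd13, of a type that can hybridise to other transcripts, rose by the same 0.32. The single-transcript probe set of Psmd13, near 3.77 and 3.74 in HighThreat and LowThreat, differed by 0.03 and was not called. Psmd6, another structural subunit, rose by 0.20 (limma adjusted p = 0.00239), and its second probe set by 0.19.

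The 250 bases before the start of Psmd14 and Psmd6 are shown because the calls of these higher lid genes held under every setting tried apart from the test against a 1.2-fold difference. Psmd14 has a single probe set, so the settings that change the probe set could not change its values. Capitals mark a CCAAT box read on the other strand (ATTGG), which begins 159 bases before the start of Psmd14, and CCGGAAG, which begins 45 bases before the start of Psmd6. The sequences are from RefSeq, build GRCm38.p6, the plus strand of chr2:61711444-61711693 for Psmd14 and the minus strand of chr14:14120946-14121195 for Psmd6.
Psmd14: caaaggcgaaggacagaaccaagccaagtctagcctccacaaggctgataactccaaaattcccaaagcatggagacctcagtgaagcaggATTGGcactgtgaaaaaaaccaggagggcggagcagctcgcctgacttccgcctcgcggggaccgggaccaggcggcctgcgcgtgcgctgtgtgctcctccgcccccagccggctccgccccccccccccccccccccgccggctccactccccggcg
Psmd6: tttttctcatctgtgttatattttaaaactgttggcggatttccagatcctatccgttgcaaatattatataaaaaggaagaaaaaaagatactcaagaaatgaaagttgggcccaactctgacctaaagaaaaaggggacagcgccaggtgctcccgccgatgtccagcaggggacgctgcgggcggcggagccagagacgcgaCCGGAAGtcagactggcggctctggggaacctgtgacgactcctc

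Psmd11, a lid subunit that clamps the regulatory particle to the core, was the lid gene called lower. It read from 9.57 to 9.81 in HighThreat animals (median 9.76), against 9.90, 9.96 and 9.99 in LowThreat pools. The groups did not overlap, and Psmd11 fell by 0.21 (SE 0.0581, 1.16-fold, limma adjusted p = 0.00942). Of its other tested probe sets, 2 were called lower, at -0.30 and -0.34, and 4 were not called, at -0.06, -0.05, -0.05 and 0.11. Psmd7, the inactive partner of Psmd14, had the smallest difference of the lid. It read from 7.33 to 7.53 in HighThreat animals (median 7.41), against 7.39, 7.40 and 7.35 in LowThreat pools, and differed by 0.04 (SE 0.0514, limma adjusted p = 0.605). A dimmer probe set of Psmd7 was called lower, at -0.39. The structural subunits Psmd3, Psmd8 and Psmd12 differed by 0.07, 0.06 and -0.06 without a call.

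None of the 3 activators was called, against 45.8% of all tested genes, and all 3 differences were below 0. Psme1, a subunit of the interferon-inducible activator, read from 9.35 to 9.49 in HighThreat animals (median 9.38), against 9.48, 9.42 and 9.33 in LowThreat pools, a difference of -0.02 (SE 0.0508, limma adjusted p = 0.784). Psme3, the nuclear activator of the same family, read from 6.72 to 6.84 in HighThreat animals (median 6.82), against 6.95, 6.97 and 6.78 in LowThreat pools. Psme4, a nuclear activator linked to histone degradation, read from 7.47 to 7.51 in HighThreat animals (median 7.47), against 7.59, 7.66 and 7.5 in LowThreat pools. For Psme3 and Psme4, pools 1-2 and 3-4 lay above every animal and pool 5-6 among them. Both differed by -0.11 (SE 0.0548 and 0.0463, limma adjusted p = 0.14 and 0.0793). Without pool 5-6 they were called lower, at -0.164 and -0.147 (limma adjusted p = 0.0282 and 0.0263). A further probe set of Psme4 was called lower, at -0.27, while another of like brightness differed by 0.02. Psme3ip1, which the rule takes by its symbol, encodes a protein that binds the Psme3 product and is no subunit. It differed by 0.07 (limma adjusted p = 0.234).

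The assembly chaperones held the largest rise and the largest fall of all members. Psmd10, also known as gankyrin, helps to assemble the base and leaves the finished complex. It read from 7.24 to 7.40 in HighThreat animals (median 7.28), against 6.76, 6.80 and 6.68 in LowThreat pools, and was higher by 0.55 (SE 0.0521, 1.46-fold, limma adjusted p = 2.58e-06). The gap between the lowest animal and the highest pool was wide beside the spread within either group. Psmg2, which forms a pair with Psmg1 in the assembly of the alpha ring, read from 4.37 to 4.59 in HighThreat animals (median 4.44), against 4.91, 4.93 and 4.97 in LowThreat pools. It fell by 0.48 (SE 0.054, 1.39-fold, limma adjusted p = 1.16e-05), and a second probe set fell by 0.42. Another, dimmer one differed by 0.11 without a call. Psmg1, its partner, differed by 0.09 (limma adjusted p = 0.348). Psmg4 was called higher by 0.20 (limma adjusted p = 0.041). That call was lost without LowThreat pool 3-4 (limma adjusted p = 0.0531) or 5-6 (difference 0.111, limma adjusted p = 0.231) and without HighThreat animal 2, 3 or 6 (limma adjusted p = 0.0741, 0.0634 and 0.0748). Psmd5, a chaperone of the base, had the smallest difference, 0.02 (limma adjusted p = 0.731), with values of 6.34 to 6.51 in HighThreat animals (median 6.40), against 6.38, 6.45 and 6.33 in LowThreat pools. Psmg3 and Psmd9 differed by 0.03 and 0.05 without a call.

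Each array's place was compared across the groups of genes. The median deviation of the beta ring from its gene means lay between 0.011 and 0.099 in HighThreat animals, against -0.074, -0.044 and -0.191 in LowThreat pools. The lid lay between 0.009 and 0.075 in HighThreat animals, against -0.010, -0.008 and -0.135 in LowThreat pools. For the beta ring and the lid all animals were above all pools, and pool 5-6 stood lowest. The same held over all members, where the lowest animal was at -0.002 and the highest pool at -0.009. Pool 5-6 was also lowest over all tested genes, at -0.026. In the alpha ring, the base and the assembly chaperones the animals and pools overlapped. The activators lay between -0.051 and 0.011 in HighThreat animals, against 0.084, 0.137 and -0.047 in LowThreat pools, so that pool 5-6 was among the animals. The mean of the granulocyte markers was 10.69, 10.61, 10.56, 10.54, 10.27 and 10.30 in HighThreat animals 1 to 6, and that of the beta ring genes 9.03, 9.05, 9.06, 8.98, 9.02 and 9.06. Animals 5 and 6 had the lowest granulocyte means, and animals 3 and 6 the highest beta ring means. The beta ring means spanned only 8.98 to 9.06, and whether these orders are related was not tested.

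**Figure D3:**
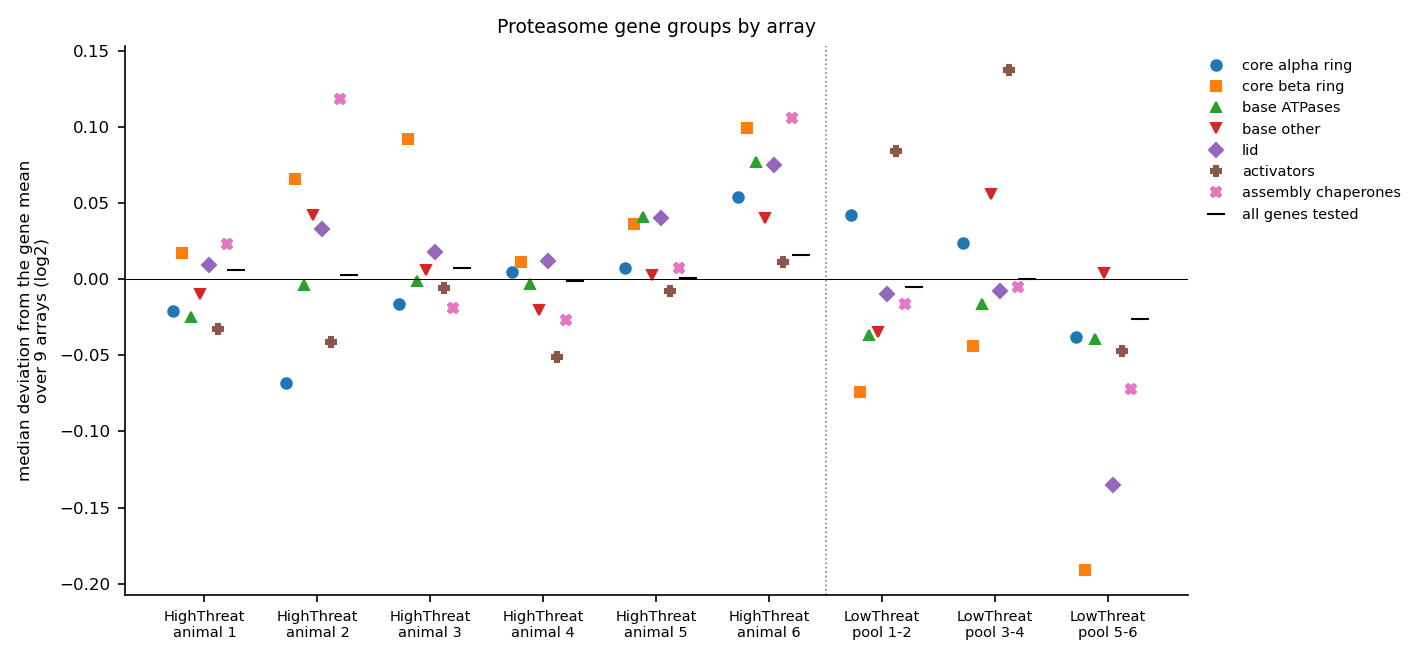
Median deviation of each group of proteasome genes from the genes' means over 9 arrays, in log2 units, with 6 HighThreat animals left of 3 LowThreat pools and a black dash for all tested genes. The beta ring (orange squares) runs from 0.011 to 0.099 in HighThreat and from -0.191 to -0.044 in LowThreat, while the dashes stay close to 0.

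Probe sets of the same gene often differed in their call, but none were called in opposite directions. Each probe set at or above the filter was also tested on its own, with p-values adjusted over all 27022 such probe sets. Of 78 probe sets of members, 16 were called higher, 10 lower and 52 in neither direction. Over all such probe sets 39.8% were called, a share not split by direction here. Among 20 members with more than 1 tested probe set, 2 had all of them called one way, 11 had called and uncalled ones, and 7 had none called. The probe sets used for 4 tested members, Psma6, Psmc2, Psmd11 and Psme4, were of types that can hybridise to other transcripts.

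Other genes of the pathway were described from a list of 35 genes, of which 26 were tested. Of these, 8 were called higher (30.8%, against 23.8% of all tested genes) and 9 lower (34.6%, against 22% of all). Among the immunoproteasome subunits, which replace the catalytic subunits after interferon, Psmb10 was higher by 0.44 (limma adjusted p = 4.92e-05). It read from 8.38 to 8.63 in HighThreat animals (median 8.52), against 8.08, 8.15 and 8.0 in LowThreat pools, while Psmb7, which it replaces, was not called. Psmb9, the replacement of Psmb6, was higher by 0.15 (limma adjusted p = 0.0224), a call lost without LowThreat pool 3-4 or 5-6 (limma adjusted p = 0.0591 and 0.0605). Psmb8, the replacement of Psmb5, differed by 0.03 (limma adjusted p = 0.669). So Psmb5 was called where its replacement was not, and Psmb10 and Psmb9 where the subunits they replace were not, with no test of these contrasts.

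Pomp, the maturation factor of the core, rose by 0.19 (limma adjusted p = 0.00666). Sem1, a small lid subunit outside the symbol rule and singled out after its values were seen, rose by 0.49 (limma adjusted p = 4.15e-06). The inhibitor Psmf1 and the deubiquitinase Usp14 differed by 0.09 and -0.06 without a call, but Psmf1 was called without LowThreat pool 1-2, at 0.17 (limma adjusted p = 0.0437). The deubiquitinase Uchl5, the thioredoxin-like Txnl1 and the nuclear import factor Akirin2, likewise singled out after their values were seen, fell by 0.37, 0.30 and 0.30 (limma adjusted p = 2.76e-04, 2.05e-04 and 2.43e-04). Txnl1 lost its call with single-transcript probe sets, at -0.1 (limma adjusted p = 0.113), and Akirin2 with the mean of probe sets, at -0.103 (limma adjusted p = 0.0675). Of the transcription factors of proteasome genes, Nfe2l1, which encodes NRF1, rose by 0.25 (limma adjusted p = 0.00115), and Nfe2l2, which encodes NRF2, differed by -0.04 (limma adjusted p = 0.501).

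The related genes with the largest differences were Zfand2a, Ngly1 and Ublcp1. Zfand2a, a stress-inducible cofactor that binds the proteasome, read from 7.01 to 7.26 in HighThreat animals (median 7.16), against 8.40, 8.28 and 8.27 in LowThreat pools, and fell by 1.17 (2.24-fold, limma adjusted p = 2.94e-08). Ngly1, the glycanase that processes the NRF1 protein, read from 6.90 to 7.09 in HighThreat animals (median 7.07), against 6.28, 6.38 and 6.17 in LowThreat pools, and rose by 0.76 (1.69-fold, limma adjusted p = 5.08e-07). Ublcp1, a phosphatase of the nuclear proteasome, rose by 0.52 (1.43-fold, limma adjusted p = 2.07e-05). All 3 exceeded every subunit of the core, base and lid among the members in size. Of 7 tested shuttle factors and parts of the p97 segregase, which deliver ubiquitinated proteins, 5 were called lower, against 22% of all tested genes, and 1 higher, with a median difference of -0.27. With the mean of probe sets 2 of the lower calls were lost, Ubqln1 at -0.047 and Ubqln2 at -0.101 (limma adjusted p = 0.422 and 0.0537). The higher one, Ufd1, lost its call without LowThreat pool 1-2 or 3-4 or any 1 of HighThreat animals 3 to 6 (limma adjusted p between 0.0543 and 0.197).

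**Figure D4:**
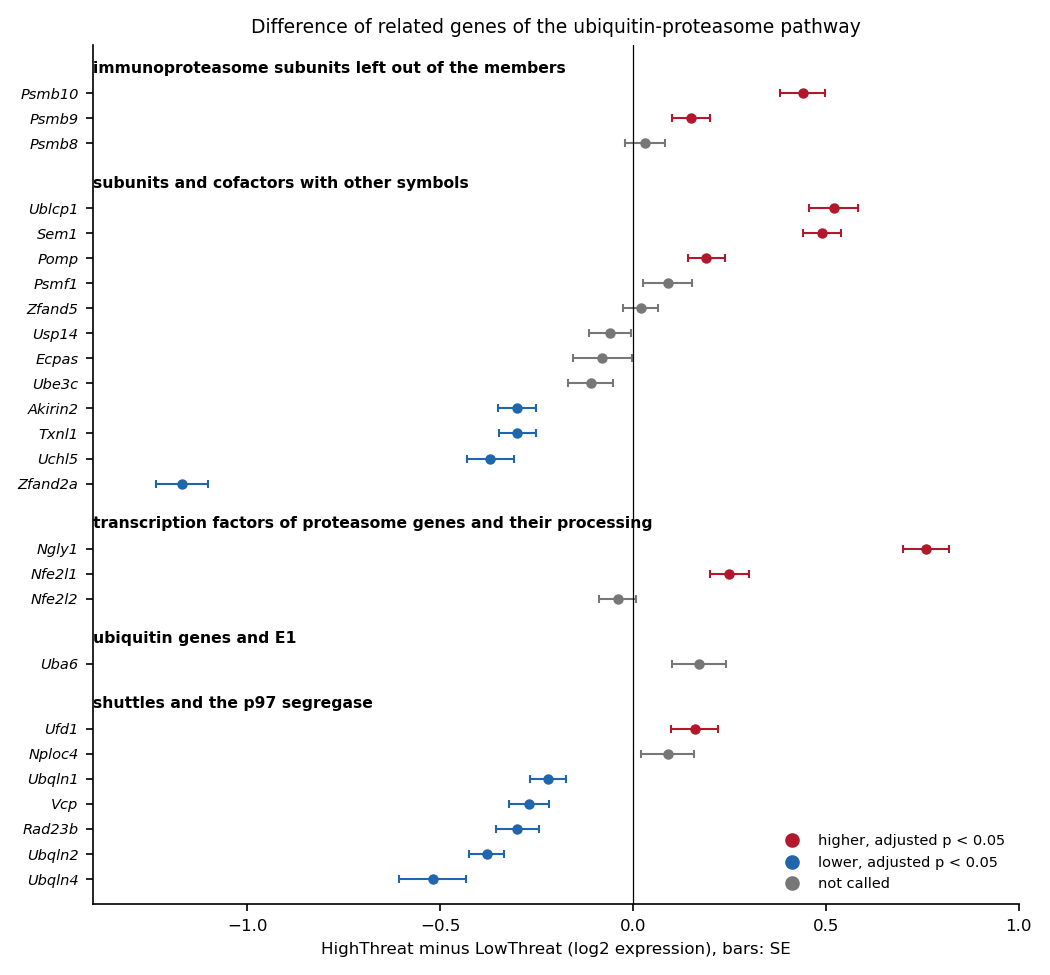
Difference between HighThreat (n = 6) and LowThreat (n = 3 pools) in log2 expression for 26 related genes in 5 lists, with bars for limma's standard error and colours for the call. Zfand2a lies lowest at -1.17 and Ngly1 highest at 0.76, and 5 of the 7 genes for shuttles and the p97 segregase lie lower.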

How the data were processed

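RNA of CD11b+ splenocytes was hybridised to Affymetrix MOE430 arrays. The deposited values are log2 expression, 1 per probe set and array, made by the authors with RMA per the submitters' processing notes. RMA subtracts background, normalizes between arrays and summarises probes, so a change in total RNA per cell would not be seen. Its version is not given in the sources used here, and log2 was inferred from values between 0.607 and 13.567. Array medians lay between 3.19 and 3.22. The number of arrays limits the precision.

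Of 45101 probe sets, 34945 name 1 gene, 932 several and 9160 none here, and 64 are controls. Symbols were updated through a RefSeq table of GRCm38.p6, in which 34741 matched. Genes with a mean at or above the 40th percentile (13078 of 18193) were compared with limma 3.58.1 in R 4.3.3 (functions lmFit and eBayes), HighThreat minus LowThreat, two-sided, with Benjamini-Hochberg adjustment over all of them and a threshold of 0.05. SE is limma's moderated standard error. Single values per array were compared with an exact permutation test over 84 divisions, whose smallest p is 0.0119. Figures were drawn with matplotlib 3.10.9. The fit was tested on simulated data, in which far fewer genes were changed than were called here. It recovered 34% of genes changed by 0.25 on the log2 scale, 90% at 0.5 and 100% at 1.

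The members and lists were chosen with earlier results of these data known. Values by array are given for Psmb5, Psmb6, Psmb7, Psmd4, Psmd14, the activators and, in each structural group, the called gene with the largest rise, that with the largest fall and the gene with the smallest difference. The same rule names Psmb8, Psmb9, Psmb10, Pomp, Psmf1, Usp14, Nfe2l1, Nfe2l2 and the 3 largest called differences among related genes. The alternatives changed the filter, the probe set per gene, the normalization, the prior, the array weights, the averaging or blocking of arrays by number and the test, or left out each array. No label gives a batch. Listed related genes that were not tested are not reported here.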

Additional observations from a re-analysis of the deposited data

Results flagged for a closer look

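In 4 of 68 genes examined (42 members and 26 related genes), 1 HighThreat animal stood apart from the other 5 by Dixon's criterion for 6 samples. Chance flags about 1 in 20 groups, or 3.4 of 68. Psmd1 read 8.25 in animal 1, against 8.46 in the next lowest animal. Psmd8 read 9.29 in animal 6, against 9.22 in the next highest animal. Psme1 read 9.49 in animal 6, against 9.40 in the next highest. Psme4 read 7.51 in animal 5, against 7.48 in the next highest. None of these 4 genes was called between HighThreat and LowThreat.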

How the results depend on the processing

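Of 17 called members, 2 were kept under all 21 alternatives, and 7 under all but the test against a 1.2-fold difference. That test left 1 member higher and 1 lower, and 0 in the core, base and lid. Of all tested genes it called 7.99% higher and 8.54% lower. Of 25 uncalled members 22 were called under none. The matching shares over all tested genes are not given here, so these counts do not rank the members' stability against that of other genes. Without single arrays, the members called higher numbered 6 to 12, against 20.0% to 23.0% of all tested genes. Those called lower numbered 3 to 5, against 19.3% to 21.4% of all. The median difference of the members was then 0.024 to 0.065, against 0.018 to 0.036 over all genes. The core had 2 to 6 higher and 1 to 2 lower, the beta ring 2 to 5 higher, the base 0 to 1 in either direction, and the activators 0 to 2 lower. Quantile normalization, estimated array weights and averaging the animals in number pairs each gave 4 higher in the core and 3 in the beta ring. Of all tested genes, 21.3% to 25.8% were called higher under these settings. In the core 2 were lower with a filter at the 60th percentile, quantile normalization, the trended prior, pools at weight 2 or the replicate block. Of all tested genes, 20.5% to 27.6% were called lower under these settings. With single-transcript probe sets 2 members were lower, 0 of them in the core or base, against 21.1% of all tested genes. The base had 0 lower with the mean of probe sets or with paired averages, against 22.8% and 20.2% of all. The activators had 1 lower with the mean of probe sets and 2 with array weights, against 22.8% and 22.4% of all. The mean of probe sets turned the uncalled Psmf1 to -0.153 (limma adjusted p = 0.0438). With the replicate block 16 members were called, 15 of them shared, against 45.5% of all tested genes called. The labels do not say that the numbers pair animals. The cause of these changes was not tested. With 3 pools, differences near 0.14 were at the edge of what was called, and RMA gives no detection call.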
